A study of Homo sapiens with 4 samples.

Results

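The protocadherins were taken as the protein-coding genes whose symbol starts with PCDH, and these were 66 of 20162 in GENCODE release 44 as placed on hg19. Of them, 53 lie in 3 clusters on chromosome 5, with 15 genes in the alpha, 16 in the beta and 22 in the gamma cluster, and the 13 other members (the non-clustered protocadherins) lie elsewhere. The m7G MeRIP-seq study compared HL60, a promyelocytic leukemia line labelled as wild type, with HL60/MX2, its derivative labelled as drug-resistant and known for its resistance to mitoxantrone. In both lines poly(A) RNA was decapped, fragmented and enriched with an m7G antibody, and the fragments were sequenced as strand-specific libraries. Each line had 1 enriched library with a list of m7G peaks, the stretches where MACS called enrichment, and the input libraries were not analysed here. A peak was counted for the gene whose exons it overlapped most on its own strand. Protocadherins received 28 peaks from the 8070 listed for HL60 and 14 from the 8122 listed for HL60/MX2.

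Protocadherins are cell adhesion proteins of the cadherin superfamily, known best from neurons, where combinations of the clustered members give each cell a surface identity. In the alpha and gamma clusters each gene owns a large first exon with its own promoter, which codes for the whole extracellular part and the membrane span, and this exon is spliced to a short set of exons common to the cluster. A beta gene codes for its whole protein in the large exon. The non-clustered members have scattered genes of more varied build. Internal m7G in mRNA is a methylated guanosine away from the cap, laid down by METTL1 and WDR4 among others.

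Since the lists give a position, a strand and a score but no reads, sequencing depth is unknown for every peak. The scale of the score is not stated in the sources used here. A score was therefore read only within its list, by its percentile there, with ties at their middle rank. With 1 library per line there was no replicate and no test between the lines was made. The 95% intervals are exact Clopper-Pearson intervals for the number of genes or peaks counted, and they cover counting error only. Of 12 myeloid marker genes, 1 held a peak in each list, CTSG in HL60 and CD33 in HL60/MX2, against 26.4% and 28.5% of all protein-coding genes. The markers have little exon (median 1911 bp, all genes 4388 bp), and a peak list does not measure expression and so does not check the cell type.

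Only PCDHB2 and PCDHB8, both of the beta cluster, held a peak that overlapped a peak of the other list. Their shared stretches are shown first, because both are repeated almost letter for letter in another beta gene. The shared stretch of PCDHB2 lies at chr5:140476510-140476743 on the plus strand of hg19, 234 bp in the coding sequence of its first exon. The same 234 bases stand in PCDHB3 at chr5:140482363-140482596, 5.85 kb away, with 0 differing bases. The shared stretch of PCDHB8 lies at chr5:140558093-140558297 (205 bp, plus strand), also in coding sequence of the first exon. Its copy in PCDHB13 at chr5:140594173-140594377, 36.1 kb away, was identical at 204 of 205 bases. The difference was A10G, counted from 1 at the 5′ end of the stretch, with the base of PCDHB8 first. The differing base is in capitals.
PCDHB2 and PCDHB3: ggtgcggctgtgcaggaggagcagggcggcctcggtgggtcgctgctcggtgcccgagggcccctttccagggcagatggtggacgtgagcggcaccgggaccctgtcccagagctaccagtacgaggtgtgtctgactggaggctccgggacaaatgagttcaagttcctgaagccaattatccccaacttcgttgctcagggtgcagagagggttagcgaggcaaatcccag
PCDHB8: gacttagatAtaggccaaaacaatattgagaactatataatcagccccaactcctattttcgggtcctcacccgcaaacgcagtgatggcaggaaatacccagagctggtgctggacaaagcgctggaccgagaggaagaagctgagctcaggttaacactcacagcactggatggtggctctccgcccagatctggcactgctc
PCDHB13: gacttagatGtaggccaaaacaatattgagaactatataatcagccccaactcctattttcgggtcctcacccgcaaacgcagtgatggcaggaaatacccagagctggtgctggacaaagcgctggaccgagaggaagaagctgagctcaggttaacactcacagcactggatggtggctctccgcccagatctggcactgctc

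In HL60, 22 of 66 protocadherins held at least 1 peak (33.3%, 95% interval 22.2-46.0%), against 26.4% of all protein-coding genes. In HL60/MX2, 13 held a peak (19.7%, 10.9-31.3%), against 28.5% of all genes. The HL60 share thus lay above the background and the HL60/MX2 share below it, and both intervals included the background. Among the genes whose exon length fell in the middle quartiles of the protocadherins, from 4827.75 to 6987.5 bp, the shares were 29.0% and 31.7%. The first lay inside the HL60 interval, and the second just above the upper end of the HL60/MX2 interval. The HL60/MX2 count of 13 gives a peak in an exon common to 15 alpha genes to 1 of them. With every overlapped gene counted it was 27, and with that peak given to no gene it was 12. Both lists together named 29 members. A peak in HL60 only was found in 16 members (24.2%, all genes 14.4%) and a peak in HL60/MX2 only in 7 (10.6%, all genes 16.5%). Both lists had peaks in 6 members (9.09%, all genes 12.0%), PCDH7, PCDH15, PCDH17, PCDH18, PCDHB2 and PCDHB8.

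Per length of exon, the protocadherins held 7.90 peaks per 100 kb in HL60 and 3.95 in HL60/MX2, where all genes held 7.05 and 7.11. The clustered members accounted for 16 peaks in 14 of 53 genes in HL60 (26.4%, 15.3-40.3%) and 8 peaks in 7 genes in HL60/MX2 (13.2%, 5.48-25.3%). The non-clustered members held 12 peaks in 8 of 13 genes (61.5%, 31.6-86.1%) and 6 peaks in 6 genes (46.2%, 19.2-74.9%). Against the shares of all genes, the clustered interval lay below the background in HL60/MX2 and included it in HL60, and the non-clustered interval lay above it in HL60 and included it in HL60/MX2. The HL60/MX2 share of the clustered genes depends on counting 1 gene per peak. A peak in the exon common to 15 alpha genes was counted for PCDHA1 alone. With every overlapped gene counted, 27 protocadherins held an HL60/MX2 peak instead of 13, and with that peak given to no gene 12 did. Exon length was not accounted for in these shares either. Non-clustered genes are longer (median exon length 9756 bp, clustered 5236 bp). Per 100 kb of exon the clustered genes held 7.46 peaks and the non-clustered genes 8.56 in HL60, and 3.73 and 4.28 in HL60/MX2. Inside the clusters the beta genes were the densest. They held 12.2 peaks per 100 kb in HL60 and 9.17 in HL60/MX2, the alpha genes 5.65 and 1.41, and the gamma genes 5.12 and 1.28. The HL60/MX2 values of the alpha and gamma genes rest on 1 peak each, and the alpha peak belongs to an exon common to the cluster.

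**Figure D1:**
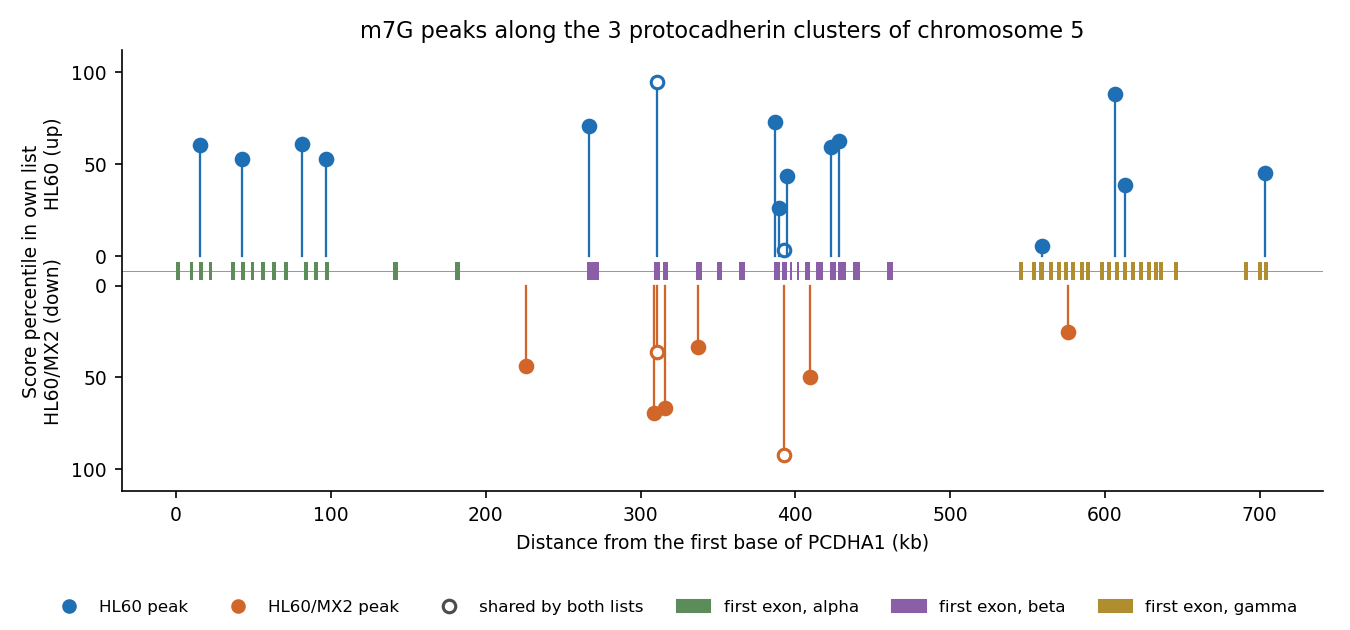
Peaks along the alpha, beta and gamma clusters, placed by distance from the first base of PCDHA1 in kb, with the percentile of the score in the list as height (HL60 up, HL60/MX2 down) and the first exons as coloured blocks. The HL60 peaks are spread over the 3 clusters, 6 of the 8 HL60/MX2 peaks are in the beta cluster, and the open circles mark the shared peaks of PCDHB2 and PCDHB8.

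The first exon was at least 2000 bp long in 58 of 66 protocadherins, 51 clustered and 7 non-clustered, and in 2.65% of all genes. Its median length was 2532 bp in the alpha, 3773 bp in the beta, 2598.5 bp in the gamma and 2835 bp in the non-clustered genes, against 200 bp over all genes. These large exons made up 71.3% of the exon length of the clustered genes. They held 14 of 16 clustered peaks in HL60 (87.5%, 61.7-98.4%) and 6 of 8 in HL60/MX2 (75.0%, 34.9-96.8%). In the non-clustered genes they made up 17.0% of the exon length and held 2 of 12 and 1 of 6 peaks, 16.7% in each list. All 4 intervals included the share of the exon length, so no departure from it was detectable with these counts. In the 476 other genes with a first exon of at least 2000 bp, the large exons made up 72.7% of the exon length and held 68.6% of 105 peaks in HL60 and 72.4% of 105 peaks in HL60/MX2. Of these genes 19.7% and 19.1% held a peak.

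**Figure D2:**
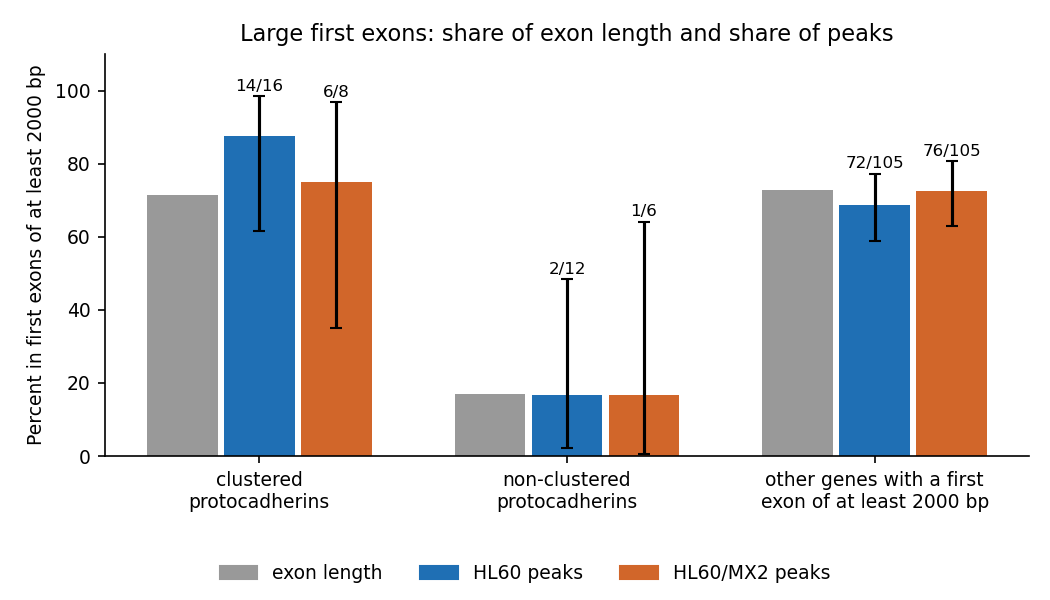
Share of exon length (grey) and of peaks (HL60 blue, HL60/MX2 orange) in first exons of at least 2000 bp, in percent, with exact 95% intervals for counting error and the peak counts above the bars. In the clustered genes the large exons hold 71.3% of exon length, 87.5% (HL60) and 75.0% (HL60/MX2) of the peaks, and in the non-clustered genes 17.0%, 16.7% and 16.7%.

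In the alpha cluster HL60 peaks were found in 4 genes and an HL60/MX2 peak in 1. The HL60 peak of PCDHA3 covered the start codon and reached codon 119 (356 bp, score 246.85, percentile 60.4). The peaks of PCDHA6 (codons 151-227) and PCDHA13 (codons 163-238) had the same score of 210.97 (percentile 53.1). The peak of PCDHA10, 200 bp at score 247.81 (percentile 60.9), was in an exon outside the longest coding transcript. The HL60 peaks in the alpha genes thus kept to a narrow range of percentiles, from 53.1 to 60.9. The single HL60/MX2 peak (274 bp, score 222.79, percentile 44.0) was in the 3′ untranslated part of the last exon, which all 15 alpha genes share. It was counted for PCDHA1 by alphabetical order only and belongs to no one gene.

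The beta cluster held 8 peaks in 6 genes in HL60 and 6 peaks in 5 genes in HL60/MX2, all of them in large first exons. PCDHB2 held 1 HL60 peak and 2 HL60/MX2 peaks. The HL60 peak at chr5:140476300-140476766 was 467 bp long and covered codons 642-798 of 798, which include the cytoplasmic end of the protein. Its score of 678.53 (percentile 94.9) was the highest of all protocadherin peaks in HL60. The HL60/MX2 peak inside it at chr5:140476510-140476743 (234 bp, codons 712-790) scored 181 (percentile 36.2). The other HL60/MX2 peak at chr5:140474458-140474749 (292 bp, codons 28-125) scored 422.97 (percentile 69.4) and had no HL60 counterpart, the nearest HL60 peak being 1551 bp away.

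PCDHB8 showed the opposite order of scores. Its HL60 peak at chr5:140558093-140558297 (205 bp, codons 160-228 of 801) scored 55.77 (percentile 3.31), the lowest protocadherin score in HL60. The HL60/MX2 peak around it at chr5:140557990-140558613 was 624 bp long, covered codons 125-333 and scored 867.29 (percentile 92.4). A further HL60 peak of 34 bp lay in the 3′ untranslated part (chr5:140560048-140560081, score 169.34, percentile 43.4). In PCDHB13, which carries the near copy printed above, an HL60 peak at chr5:140594065-140594377 (313 bp, codons 124-228, score 255.4, percentile 62.5) ended on the last base of that copy. So in HL60 both copies were listed and both peaks ended at the same place of the repeated sequence. In HL60/MX2 only the PCDHB8 copy was listed. No peak of either list covered the PCDHB3 copy of the PCDHB2 stretch.

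The other beta peaks were found in 1 list each. In HL60, PCDHB1 held a peak over codons 437-506 (score 310.4, percentile 71.0) and PCDHB12 one over codons 129-199 (score 240.29, percentile 59.5). PCDHB7 held a long HL60 peak of 509 bp from just ahead of its annotated start to codon 98 (score 326.26, percentile 73.2). A second HL60 peak of PCDHB7, 256 bp in the 3′ untranslated part, scored 112.89 (percentile 26.1). In HL60/MX2, peaks stood in PCDHB3 (codons 337-417, score 397.01, percentile 66.6), in PCDHB4 (codons 408-493, score 167.7, percentile 33.5) and in the 3′ untranslated part of PCDHB10 (196 bp, score 259.66, percentile 49.9). PCDHB10 thus sat at the median of its list.

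In the gamma cluster the HL60 peaks were in PCDHGA3, PCDHGA8, PCDHGB5 and PCDHGC5. Those of PCDHGA3 (codons 352-442, score 60.33, percentile 5.56), PCDHGB5 (codons 299-386, score 149.97, percentile 38.5) and PCDHGC5 (codons 30-111, score 176.07, percentile 45.2) were in coding sequence. All of these lay below the median of the HL60 list. The peak of PCDHGA8 (258 bp, score 492.9, percentile 88.5) was higher and lay in an exon outside the longest coding transcript. It ended at chr5:140772149, just before the large first exon, which starts at chr5:140772200. In HL60/MX2 a single peak of 8 bp at chr5:140742131-140742138, in an exon of another PCDHGB2 transcript, had the lowest protocadherin score of that list, 129.92 (percentile 25.3). It lay just past the large first exon, which starts at chr5:140739561 and is 2563 bp long. The PCDHGA8 and PCDHGB2 peaks were both counted as outside the large first exons. The common last exons of the gamma cluster held 0 peaks in either list.

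**Figure D3:**
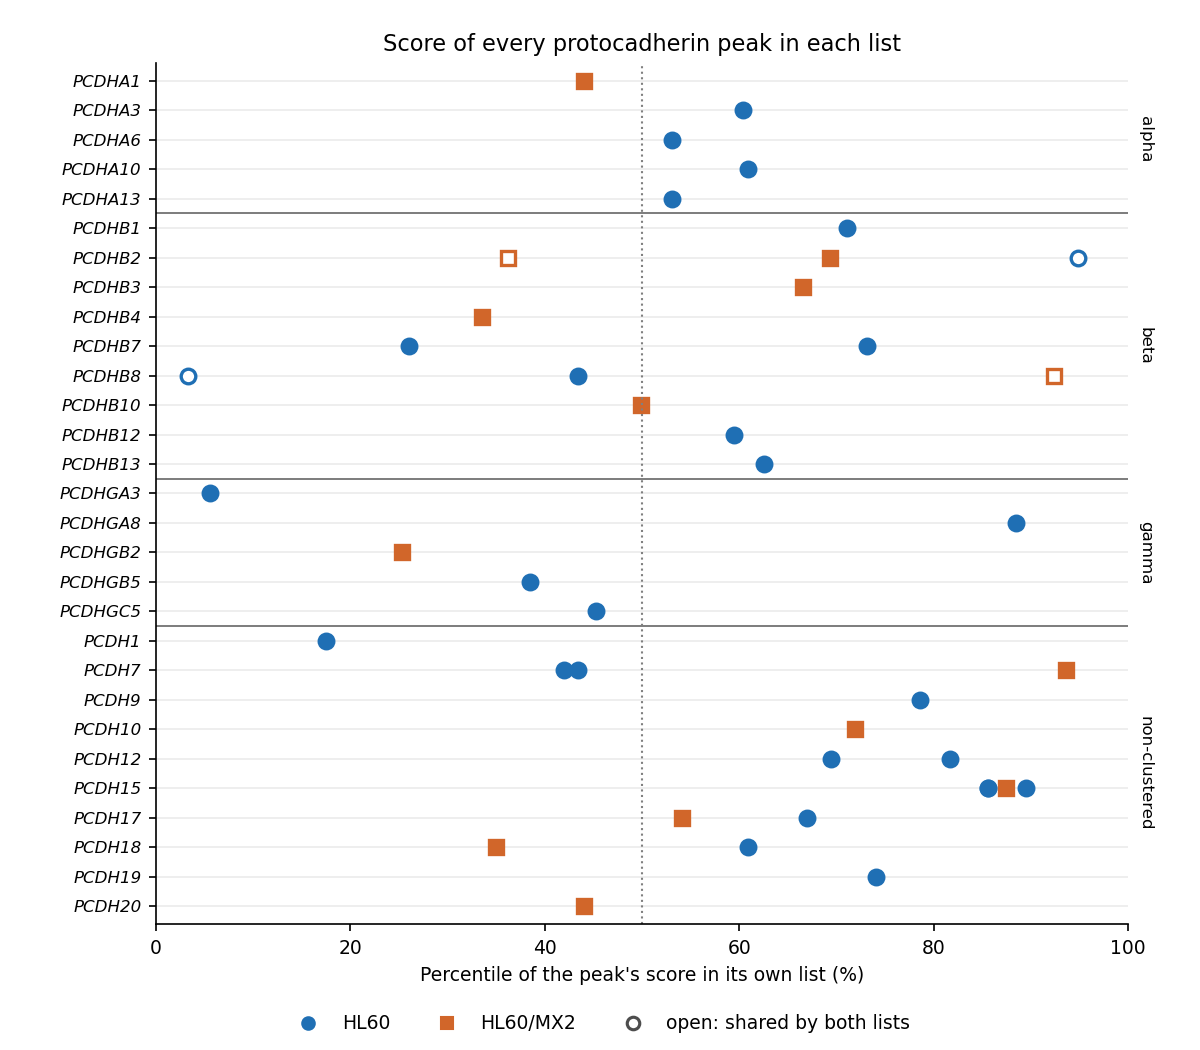
Score of each protocadherin peak as a percentile of its own list (HL60 circles, HL60/MX2 squares), by gene, with open symbols for shared peaks and a dotted line at the median of the list. The alpha peaks of HL60 lie between 53.1 and 60.9, the shared peaks lie far apart between the lists in PCDHB2 (94.9 in HL60 and 36.2 in HL60/MX2) and PCDHB8 (3.31 and 92.4), and the PCDH15 peaks lie at 85.6 or higher.

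Where the clustered peaks lay along the coding sequence differed between genes. The midpoints of the 12 coding peaks in HL60 lay at a median of 21.6% of the coding sequence (6.24-90.2%), with 8 in the leading, 3 in the middle and 1 in the trailing of 3 equal parts. The 5 coding peaks in HL60/MX2 had a median of 47.4% (9.59-94.1%), with 2, 2 and 1. In HL60 the codons under the most coding peaks were 163-199, in the extracellular part, a stretch picked from these same peaks. Of the 12 peaks, 5 covered these codons of their own gene. These were the peaks of PCDHA6, PCDHA13, PCDHB8, PCDHB12 and PCDHB13, which are homologous genes, and those of PCDHB8 and PCDHB13 lie in the repeated sequence above. The sequences of the others are given here because the observation rests on their codon numbers. These were counted in each gene's own coding sequence, without aligning the genes. Capitals mark GGAA followed by A or G, called the GGAA motif here, a purine-rich motif searched on the mRNA strand alone. The paper reported it as a motif found with DREME in its own m7G peaks.
PCDHA6, chr5:140208128-140208355, plus strand: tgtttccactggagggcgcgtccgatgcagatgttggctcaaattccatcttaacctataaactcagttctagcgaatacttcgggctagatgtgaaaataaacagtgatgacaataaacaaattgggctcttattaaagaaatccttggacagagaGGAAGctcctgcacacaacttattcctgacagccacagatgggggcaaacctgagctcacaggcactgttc
PCDHA13, chr5:140262342-140262567, plus strand: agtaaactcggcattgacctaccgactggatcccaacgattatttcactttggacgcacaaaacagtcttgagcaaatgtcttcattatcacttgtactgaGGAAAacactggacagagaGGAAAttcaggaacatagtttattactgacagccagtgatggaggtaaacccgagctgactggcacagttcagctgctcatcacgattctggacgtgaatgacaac
PCDHB12, chr5:140588866-140589076, plus strand: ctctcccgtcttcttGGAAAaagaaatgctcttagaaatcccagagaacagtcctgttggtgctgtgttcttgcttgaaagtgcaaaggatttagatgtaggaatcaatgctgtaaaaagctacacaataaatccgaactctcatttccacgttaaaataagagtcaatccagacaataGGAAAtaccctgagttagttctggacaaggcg
The GGAA motif began at codon 203 in PCDHA6, codons 197 and 203 in PCDHA13, codons 134 and 189 in PCDHB12, and codons 190 and 204 in both PCDHB8 and PCDHB13. Over the whole coding sequences, a site at codon 203 or 204 was present in 4 of these 5 genes and in 9 of the 53 clustered genes (17.0%), and a site at codon 189 or 190 in 3 of the 5 and in 7 of the 53 (13.2%). These codons were picked from the same peaks, and PCDHB8 and PCDHB13 are near copies there, so the counts are a description only. Between codons 124 and 238, the codons these 5 peaks span together, 43 of the 53 clustered genes (81.1%) held such a site, most of them without a peak.

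**Figure D4:**
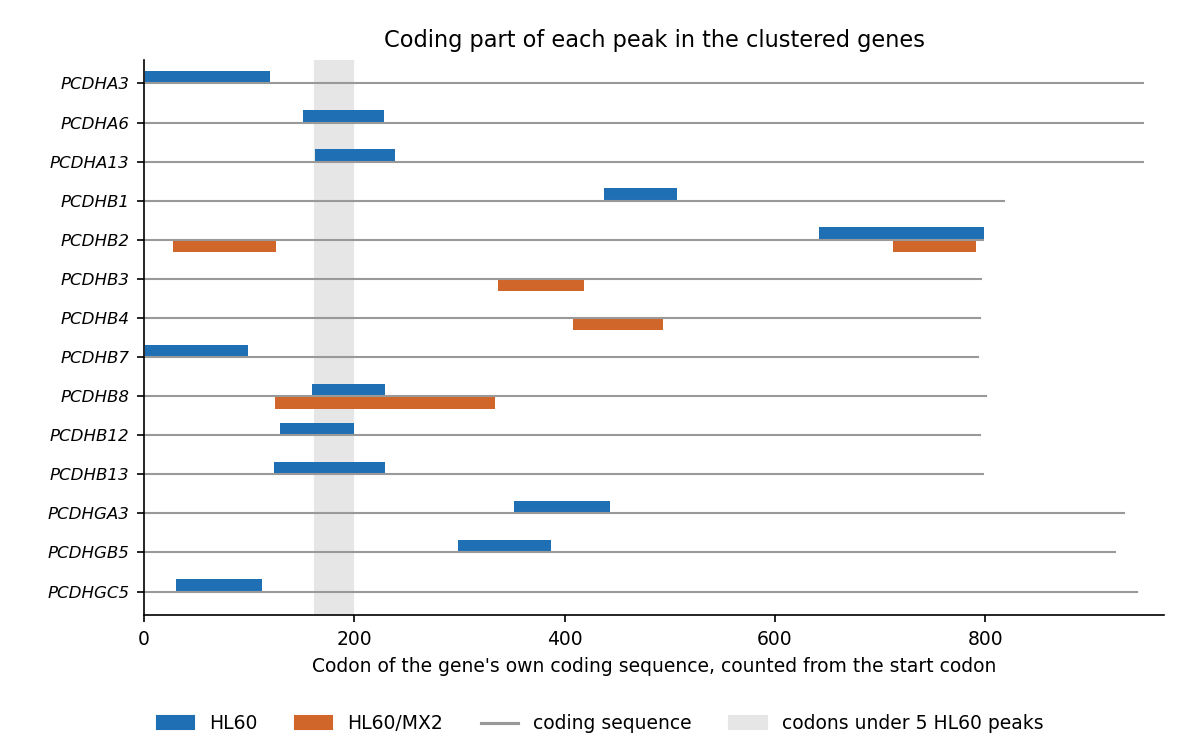
Coding part of each peak in the clustered genes (HL60 blue above the line, HL60/MX2 orange below), by codon of the gene's own coding sequence, with grey lines for the coding sequences. The shaded codons 163-199 lie under 5 HL60 peaks, and the peaks of PCDHB2 and PCDHB8 overlap between the lists.

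The GGAA motif occurred in 15 of 28 protocadherin peaks in HL60 (53.6%, 33.9-72.5%) and in 7 of 14 in HL60/MX2 (23.0-77.0%). Of all windows of the same lengths in the exons of the same genes, 44.2% and 40.0% held it, and 43.9% and 43.0% of all listed peaks did. A second motif, CTG followed by G or T and then by A or G, occurred in 75.0% and 64.3% of the protocadherin peaks and in 70.9% and 66.0% of such windows, searched in the same way. Of all listed peaks 56.0% and 57.2% held it. Each interval included the share of the windows. The paper reported both motifs from its own m7G peaks, so the shares in listed peaks are not independent of how the motifs were found. It shows a top motif for each line and states that the motifs of the lines differed. Here both motifs were searched in both lists. The gamma peaks with the GGAA motif are shown because they carry 3 and 2 sites in coding sequence.
PCDHGA3, chr5:140724656-140724926, plus strand: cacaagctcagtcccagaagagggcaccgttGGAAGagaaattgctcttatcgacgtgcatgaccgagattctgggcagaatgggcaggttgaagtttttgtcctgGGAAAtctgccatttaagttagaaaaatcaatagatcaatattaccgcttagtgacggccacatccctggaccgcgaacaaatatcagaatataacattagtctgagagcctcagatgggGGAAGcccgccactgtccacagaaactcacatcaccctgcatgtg
PCDHGB5, chr5:140778590-140778851, plus strand: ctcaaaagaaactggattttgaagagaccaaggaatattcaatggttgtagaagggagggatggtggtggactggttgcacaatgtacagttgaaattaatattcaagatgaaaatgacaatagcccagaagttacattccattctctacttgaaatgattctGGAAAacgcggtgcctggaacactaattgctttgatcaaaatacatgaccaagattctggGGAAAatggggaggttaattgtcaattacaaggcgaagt

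Of the 13 non-clustered protocadherins 10 held a peak in either list, and PCDH8 and PCDH11X were among those without one. PCDH7, PCDH15, PCDH17 and PCDH18 held a peak in both lists, in each case at different places. PCDH15, which forms the tip links of the hair cells of the inner ear, held 3 HL60 peaks and 1 HL60/MX2 peak, the most of any member. Its HL60 peaks were short. They measured 47 bp (chr10:55569260-55569306, score 447.3, percentile 85.6), 12 bp (chr10:56077190-56077201, codons 241-244 of 1962, score 511.48, percentile 89.5) and 16 bp (chr10:57079359-57079374, score 447.3, percentile 85.6), and each started or ended at an exon end. The HL60/MX2 peak at chr10:55582788-55583069 was 282 bp long, covered codons 1480-1573 and scored 695.79 (percentile 87.5). It lay 13482 bp from the nearest HL60 peak.

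PCDH7, a member of the delta1 group of protocadherins, held 2 HL60 peaks and 1 HL60/MX2 peak. The HL60 peaks were in the 5′ untranslated part of the large first exon (chr4:30722699-30722910, 212 bp, score 169.34, percentile 43.4) and at the 3′ end of the gene (chr4:31144095-31144927, 833 bp, score 162.8, percentile 42.0). Of the 833 bp, 374 were coding in the longest coding transcript. The HL60/MX2 peak at chr4:30921775-30921903 was an exon from end to end (129 bp, codons 1081-1123) and had the highest protocadherin score of that list, 946.68 (percentile 93.6). Its coding sequence, from the cytoplasmic part of the protein, reads as follows, with 0 sites of the GGAA motif.
PCDH7, chr4:30921775-30921903, plus strand: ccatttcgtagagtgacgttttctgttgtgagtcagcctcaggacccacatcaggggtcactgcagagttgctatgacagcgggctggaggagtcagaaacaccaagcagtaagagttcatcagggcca
In PCDH18, of the delta2 group, the peaks of both lists stood side by side in the coding sequence, 91 bp apart in the genome (counted between nearest bases). The HL60 peak covered codons 841-859 (56 bp, score 247.81, percentile 60.9) and the HL60/MX2 peak codons 859-914 (164 bp, score 174.31, percentile 34.9). Both ran to an exon end, and codon 859 is split between the exons. They shared no base, and each held 1 site of the GGAA motif, in capitals.
PCDH18 in HL60, chr4:138449886-138449941, minus strand: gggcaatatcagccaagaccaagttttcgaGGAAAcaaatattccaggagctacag
PCDH18 in HL60/MX2, chr4:138449632-138449795, minus strand: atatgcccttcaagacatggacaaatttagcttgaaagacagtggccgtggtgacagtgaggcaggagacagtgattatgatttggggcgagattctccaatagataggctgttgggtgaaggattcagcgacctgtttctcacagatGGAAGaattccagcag

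PCDH17, also of the delta2 group, held a peak of 474 bp in HL60 (score 283.53, percentile 66.9) and one of 213 bp in HL60/MX2 (score 290.38, percentile 54.1), 1022 bp apart in the 3′ untranslated part. In HL60 only, peaks stood in the 3′ untranslated part of PCDH9 (296 bp, score 368.5, percentile 78.6) and of PCDH19, a gene mutated in a childhood epilepsy (446 bp, score 330.29, percentile 74.0). PCDH12, a protocadherin of endothelial cells, held an HL60 peak in coding sequence of the first exon (codons 367-442, score 399.39, percentile 81.7) and one in the 3′ untranslated part (215 bp, score 300.84, percentile 69.4). PCDH1 held an HL60 peak of 406 bp over codons 166-301 (score 87.85, percentile 17.5), the lowest of the non-clustered members. In HL60/MX2 only, peaks stood across the end of the first exon of PCDH10 (244 bp, codons 841-877, score 449.39, percentile 71.9) and in PCDH20 (271 bp, codons 655-745, score 222.79, percentile 44.0). Of the 244 bp in PCDH10, 110 were coding in the longest coding transcript, and the rest ran past its first exon. The annotation lists the PCDH20 exon a second time under an entry without a symbol, and the peak was counted for PCDH20.

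In HL60 the 28 protocadherin scores ran from 55.77 to 678.53 with a median of 247.81, and the median percentile was 60.9. In HL60/MX2 the 14 scores ran from 129.92 to 946.68 with a median of 275.02 and a median percentile of 52.0. There were 19 of 28 and 7 of 14 peaks above the median of their list, and 1 and 2 above the 90th percentile. The median percentile was 56.3 for clustered and 71.7 for non-clustered members in HL60, and 47.0 and 63.0 in HL60/MX2. Scores were often the same number. Of the protocadherin peaks, 22 in HL60 (78.6%) and 13 in HL60/MX2 (92.9%) had a score found on at least 1 other peak of the list, against 57.8% and 56.5% of all listed peaks.

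Protocadherin peaks were long. Their median length was 235 bp in HL60 and 242 bp in HL60/MX2, against 129 and 133 bp over the lists, and 23 of 28 (82.1%) and 10 of 14 (71.4%) were at least 200 bp long, against 35.4% and 36.1%. The 476 other genes with large first exons had median peak lengths of 228 and 236 bp. By place, 16 of the 28 HL60 peaks lay in coding sequence (57.1%), 7 in 3′ and 1 in 5′ untranslated parts, and 4 in exons outside the longest coding transcript. In HL60/MX2 the numbers were 10 of 14 in coding sequence (71.4%), 3, 0 and 1. Over all genes 60.2% and 58.4% of the peaks were in coding sequence. In HL60 coding sequence held 12 of 16 clustered and 4 of 12 non-clustered peaks, and the 3′ untranslated parts 2 of 16 and 5 of 12. In HL60/MX2 the order was the reverse. Coding sequence held 5 of 8 clustered and 5 of 6 non-clustered peaks there, and the 3′ untranslated parts 2 of 8 and 1 of 6. The GC content of the peaks had a median of 44.7% and 46.3%, near the 45.2% and 48.0% of the lists. No peak of either list lay over a protocadherin exon on the opposite strand.

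The share of protocadherin peaks that overlapped a peak of the other list was 2 of 28 in HL60 (7.14%, 0.877-23.5%) and 2 of 14 in HL60/MX2 (14.3%, 1.78-42.8%). Over the lists it was 6.13% and 6.09%, inside both intervals. A sequence of 50 bases that touched the peak and also stood elsewhere in the genome, on either strand, was found for 5 of 28 HL60 peaks, those of PCDHA3, PCDHA6, PCDHB2, PCDHB8 and PCDHB13, and for 3 of 14 HL60/MX2 peaks, in PCDHB2, PCDHB4 and PCDHB8. Over the lists it was found for 11.4% and 11.2%. All these protocadherin peaks were in clustered genes, and 0 of 12 and 0 of 6 non-clustered peaks had such a sequence. The shared peaks of both lists were among them. Of protocadherin peaks with a repeated sequence 2 of 5 and 2 of 3 were shared, and of those without one 0 of 23 and 0 of 11, which allows a share of up to 14.8% and 28.5% (upper end of the exact interval). Over the lists, 8.69% and 8.21% of peaks with a repeated sequence were shared and 5.81% and 5.83% of the others. How the authors' alignment placed reads that match several places is not stated in the sources used here, and its part in the shared peaks was not tested.

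The longest identical run between a peak and another protocadherin was 277 bp for the HL60 peak of PCDHB2, with PCDHB3. Genes that share the peak's own exon were left out. The HL60/MX2 peak in the common alpha exon therefore has a run of 14 bp, with PCDH9 and PCDHB1. It was 234 bp for the shared HL60/MX2 peak of PCDHB2, 205 bp for the HL60/MX2 peak of PCDHB8 and 195 bp for the HL60 peaks of PCDHB8 and PCDHB13. The peaks of PCDHB4 (154 bp, with PCDHB15), PCDHA3 (122 bp, with PCDHA12 and PCDHA13) and PCDHA6 (54 bp, with PCDHA8) followed. The peaks in gamma and non-clustered genes had no run above 19 bp.

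**Figure D5:**
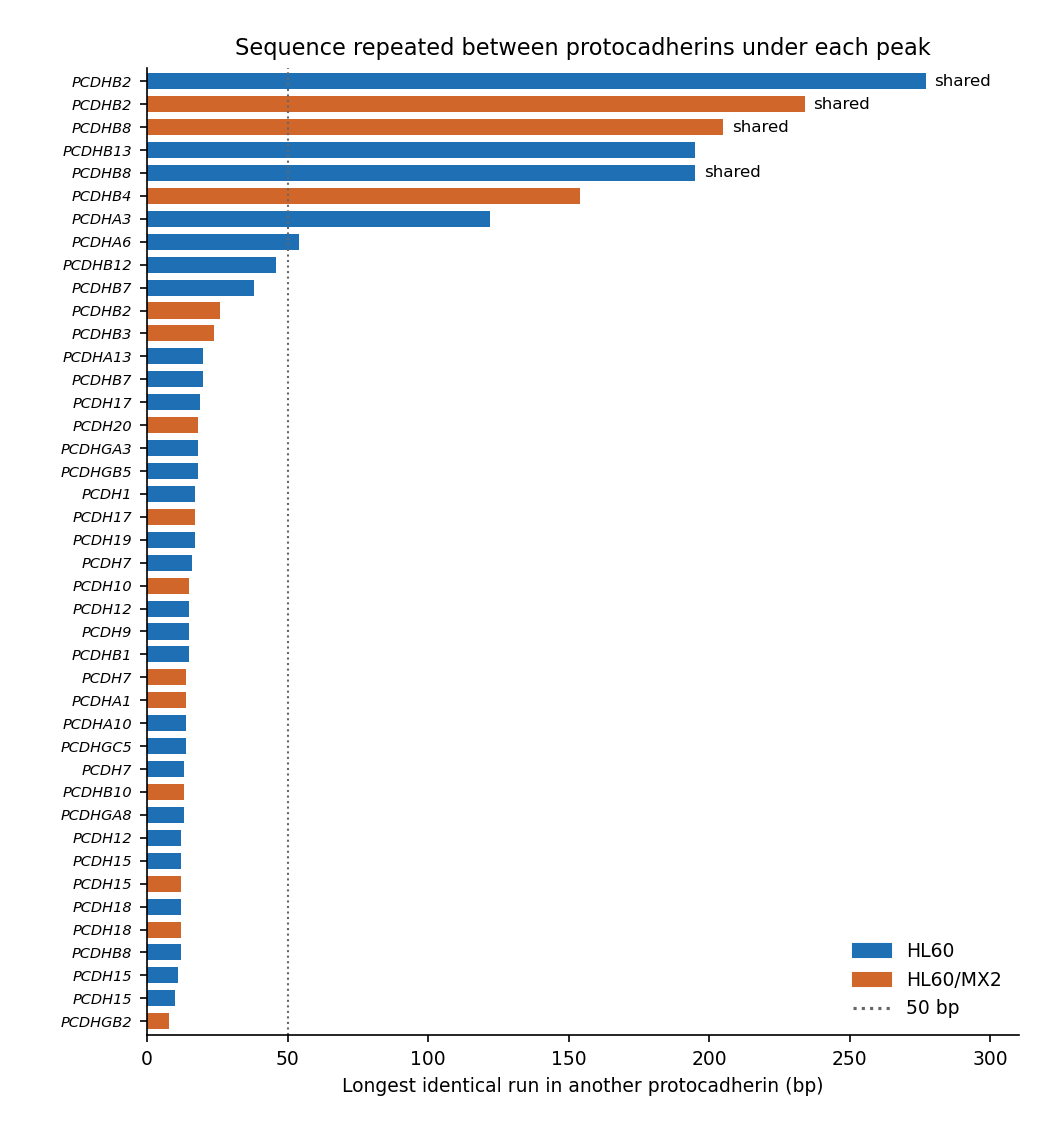
Longest run of bases, in bp, that each protocadherin peak has in common with another protocadherin gene (HL60 blue, HL60/MX2 orange), with shared peaks named and a dotted line at 50 bp. Genes that share the peak's own exon are left out, as for the peak in the common alpha exon. The 4 shared peaks have runs of 195 to 277 bp, and no gamma or non-clustered peak has a run above 19 bp.

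Genes around the protocadherins were read from lists chosen for this purpose, beside the 26.4% (HL60), 28.5% (HL60/MX2) and 12.0% (both lists) of all genes with a peak. Of 48 other cadherin superfamily genes (median exon length 7456 bp, protocadherins 5463 bp), HL60 peaks were in 33 (68.8%, 53.7-81.3%), HL60/MX2 peaks in 26 (54.2%, 39.2-68.6%) and peaks of both lists in 20. They include the classical cadherins CDH1 and CDH2 and the large cadherin FAT3, each with a peak in both lists. Of 12 genes that act on promoter choice in the clusters, the HL60 list had 6 and the HL60/MX2 list 7, with 4 in both (the DNA methyltransferase DNMT3B, the cohesin loader NIPBL, the histone methyltransferase SETDB1 and the cohesin subunit STAG2). CTCF, whose binding directs looping between cluster promoters and enhancer, held one in HL60 only. Of 16 processing and signalling partners, 6 and 8 held a peak. The 5 in both lists were CYFIP1, CYFIP2 and NCKAP1 of the WAVE complex, which delta2 protocadherins recruit, and the kinases FYN and PTK2. These lists have long genes too (median exon lengths of 10467.5 and 9287 bp against 4388 bp over all genes), and their shares were not compared further.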

How the data were processed

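Paired-end reads were trimmed by the authors with Cutadapt (v1.9.3), aligned them to hg19 with Hisat2 (v2.0.4), called peaks with MACS and kept peaks over protein-coding exons with scripts of their own (the input reads were also aligned with STAR). The version and settings of MACS are not given in the sources used here. The deposited lists give a score for each peak, on an unstated scale, and no read counts, so depth is unknown. Starts were turned to count from 1. Genes on the mitochondrial chromosome and second copies of pseudoautosomal genes were left out, and ties in overlap went to the entry with a symbol, then by alphabet. Peaks of both lists that had at least 1 bp in common on 1 strand were called shared. Repeated sequence was searched with 50-base windows over hg19. The place in a gene was taken from its longest coding transcript. Every member with a peak is named, those with a shared peak, at least 3 peaks or the highest or lowest score in full. The members and gene lists were chosen with earlier results of these data known. Steps were tested on simulated data and run with numpy 2.4.6, matplotlib 3.10.9 and scipy 1.17.1 (Python 3.11.15).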

Additional observations from a re-analysis of the deposited data

How the results depend on the processing

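The numbers of members with a peak, of their peaks and of shared peaks, the share in large first exons and the median score percentile were recomputed under 16 alternatives, 2 of them chosen after seeing the data (leaving out peaks with repeated sequence, and giving the tied PCDH20 peak to the entry without a symbol). Of 112 recomputed values, 101 stayed within 1.5 times the count or within the 95% interval. Taking either strand, asking for 50% of the peak over exon, or using coding transcripts only changed no value. The intervals are also wide, so the tally is a weak measure of stability. Counting every overlapped gene raised the HL60/MX2 members with a peak from 13 to 27, since the common last exon of the alpha cluster then counts for all its genes. With that peak given to no gene, 12 HL60/MX2 members held a peak, and their share stayed below the 28.5% of all genes. The share of all genes was not recomputed with every overlapped gene counted. The count of 27 therefore has no background to be set against. Keeping only peaks at or above the median score left 8 HL60/MX2 members with a peak, 8 peaks and 0 shared peaks in each list. A score of at least 100, or an overlap of at least 50% of both peaks, left 1 shared peak in each list, and leaving out peaks with repeated sequence left 0. No paired analysis was possible because each line has 1 library, and no library could be left out for the same reason. Without read counts or replicates, neither a missing peak nor a difference between the lines can be told from the limits of 1 library.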

Other observations

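In HL60/MX2 a peak of 18 bp on the plus strand at chr5:140345747-140345764 (score 512.76, percentile 77.3) lay over no annotated protein-coding exon and ended 297 bp before the first exon of PCDHAC2, a gene of the alpha cluster with 0 peaks of its own.

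Each peak name ends in a running number that follows genome order, and the highest was 942541 for HL60 and 780326 for HL60/MX2. The listed peaks are 0.856% and 1.04% of these numbers. What an unlisted number stands for is not stated in the sources used here. Between the first and last listed peak inside the clusters, which are 688 kb apart in HL60 (PCDHA3 to PCDHGC5) and 396 kb apart in HL60/MX2 (from the peak before PCDHAC2 to PCDHGB2), the numbers ran over 224 values in HL60, of which 16 were listed (7.14%), and over 116 in HL60/MX2, of which 10 were listed (8.62%). These are unlike stretches of the clusters. Per Mb of its own stretch this was 324 and 290 numbers. The 10 listed for HL60/MX2 include a minus-strand peak counted for SLC25A2 (chr5:140682197-140682496), between the beta and gamma clusters. Each stretch starts and ends at a listed peak, so its listed share is not comparable with that of the whole list.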
